A study of Mus musculus with 6 samples.

Results

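The 48 DNA replication genes described here were chosen by name, for their known roles in copying the genome, from the 22609 genes of a count table of laser-captured cells of the mouse mandibular condyle. The condyle is the cartilage-covered head of the lower jaw in the temporomandibular joint. The compared groups were the articular zone, its outer layer (replicates 2, 3 and 4), and the mature zone, the deeper layer of chondrocytes (replicates 2 and 3), both from CD-1 mice on postnatal day 7. Zones were recognised in frozen sections by cell morphology, captured sections were pooled into each sample, and poly(A) RNA was sequenced. Mature zone replicate 4 had mapped poorly and was not analysed here. The sources used here do not say how many animals stood behind a pool, so p-values measure the spread between these 5 libraries.

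Before S phase, the origin recognition complex, CDC6 and CDT1 load the ring-shaped MCM helicase onto DNA, a step called licensing. The kinase CDC7 with its activator DBF4 then starts the helicase by letting CDC45 and the GINS complex join it, and DNA polymerases alpha, delta and epsilon copy the strands behind it. Growing cartilage holds dividing chondrocytes and their precursors beside cells that have left the cell cycle, and most replication genes are transcribed most strongly in dividing cells, in large part through E2F transcription factors.

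In the articular zone, 6 of the 48 genes were higher than in the mature zone at an adjusted p under 0.05 (edgeR's quasi-likelihood test with Benjamini-Hochberg adjustment over 13119 genes). These were Cdc7, Exo1, Pola1, Pole, Rpa1 and Rrm1, or 12.5% of the list, where 1.14% of all genes tested were called higher and 3.00% were called in either direction. Cdc7 and Exo1 were nearly absent from the mature libraries, so they could enter the test only through the articular zone. Among the 45 genes that reached the count minimum of the test in both mature libraries, 4 were called higher (8.89%, against 1.02% of all such genes). None of the 48 was called lower, where 1.85% of all genes were; at an unadjusted p under 0.05, 20 were higher and 1, Fen1, was lower, against 10.8% of all genes higher and 9.27% lower. DESeq2 and limma-voom also called none lower. DESeq2 called 16 higher, with all 6 among them, but it called 1036 of all genes higher, where edgeR called 150. Limma-voom called 4, Mcm5, Rpa1, Lig1 and Rrm1, of which 2 are among the 6. The fitted log2 fold change, articular over mature, was above 0 for 44 genes (91.7%, against 53.5% of all genes), with a median of 0.91 against 0.07 over all genes. Levels in the articular and mature libraries did not overlap for 27 of the 48. In 26 of these the articular zone was higher (54.2%, against 21.1% of all genes tested), and in 1, Fen1, it was lower (2.08%, against 17.6%).

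Depth ranged over 15449883 to 18884685 counts for the articular libraries and was 15555620 and 16302047 counts for the mature ones, with 13538 to 14650 genes detected in the articular and 12357 and 13121 in the mature libraries. The zone labels were checked with chondrocyte markers: 10 of 11 were called lower in the articular zone, where 1.85% of all genes were. Their summed level there was 2142 to 3972 CPM (TMM-normalized read counts scaled to library size), against 26020 and 43170 CPM in the mature zone. Prg4, which encodes lubricin of the joint surface, had 32, 11 and 57 counts in the articular zone, against 11 and 0 counts in the mature zone, so this defining marker of the adult articular surface was nearly absent. Of the 6 articular surface markers listed, 5 had a log2 fold change above 0 and 1 went the other way. In 4 the articular zone was higher without overlap, as in 21.1% of all genes tested. Dpt and Pdgfra were called, where 1.14% of all genes were called higher. Dpt had 216.3, 119.6 and 161.7 CPM in the articular zone, against 54.1 and 30.7 CPM in the mature zone. The replicate 2 libraries of both zones carried most of the skeletal muscle marker RNA, with 1134 CPM in articular replicate 2 and 963 CPM in mature replicate 2, against 18.1 to 90.2 CPM in the others. Summed markers of endothelium (17.8 to 208 CPM against 6.77 and 36.8 CPM) and of myeloid cells (14.5 to 264 CPM against 21.9 and 41.9 CPM) overlapped between zones. Yet all 7 endothelial and all 8 myeloid markers tested had a log2 fold change above 0, against 53.5% of all genes. Their medians were 2.72 and 2.78, and 1 of each was called higher, as were 1.14% of all genes. Of the markers listed, 2 endothelial and 4 myeloid had 0 counts in both mature libraries. Erythroid markers, nearly all from Hbb-bs, summed to 278, 76.8 and 273 CPM in the articular zone, against 58.5 and 32.3 CPM in the mature zone, and Schwann cell markers to 1.14 to 31.2 CPM against 0.85 and 0.36 CPM. Both sums moved with the replication genes without overlap, while Hba-a1, Hba-a2, Hbb-b1 and Klf1 were at 0 in all 5 libraries. The endothelial, myeloid, erythroid and Schwann cell sums were each lowest, among articular libraries, in replicate 3, and the part of other cell types in the zone differences was not tested. In captured tissue, fewer dividing cells and less RNA per dividing cell cannot be told apart.

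Summed over all 48 genes, the level was 3156, 3154 and 3113 CPM in the articular zone and 2177 and 1350 CPM in the mature zone (means 3141 ± 24.4 and 1763 ± 585, SD, n = 3 and 2). The articular libraries were nearly equal, whereas the mature libraries lay apart, both below the articular range. Mature replicate 3 was the lowest of the 5 libraries for 34 genes (70.8%, against 28.6% of all genes tested), and mature replicate 2 for 7. The level in mature replicate 2 reached the lowest articular library for 19 genes, and that in mature replicate 3 for 10. Without mature replicate 2 the median log2 fold change was 1.52, against 0.17 over all genes. Without mature replicate 3 the median was 0.64, against 0.105 over all genes. Without both replicate 2 libraries the median was 1.53, against 0.096 over all genes. Each of these fits left 1 mature library, so they give no spread within the mature zone.

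**Figure D1:**
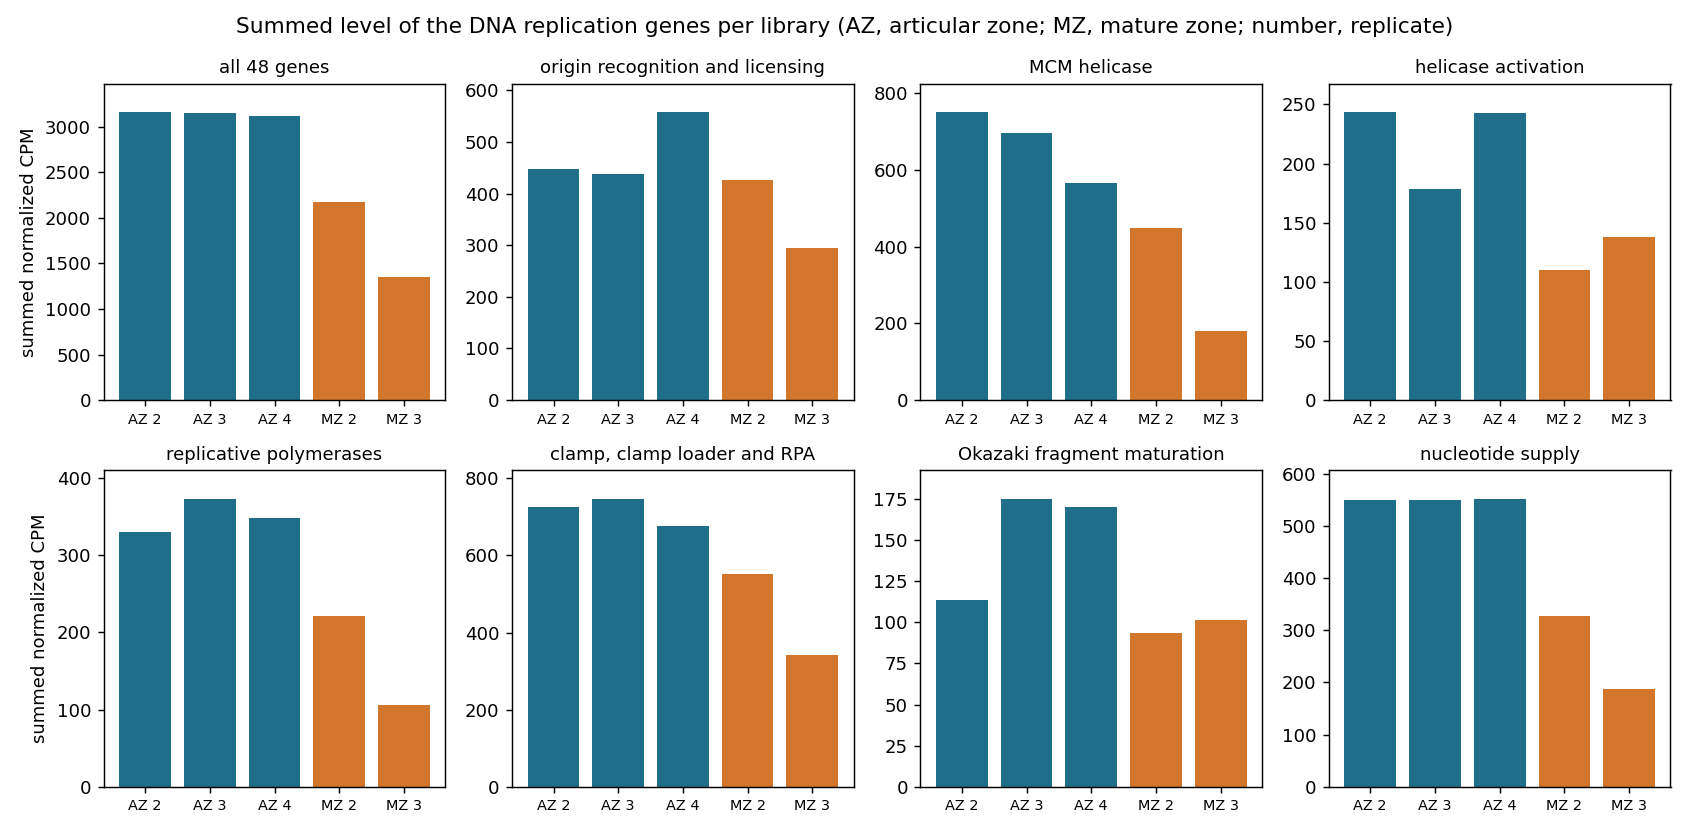
Summed level of the DNA replication genes in each library, for all 48 and by role; each bar is 1 library, the y axis is TMM-normalized CPM, and AZ and MZ are the articular and mature zones. The 3 articular libraries lie at 3113 to 3156 CPM for all 48 genes, against 2177 and 1350 CPM in the mature zone.

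The promoter sequences of the genes were read from RefSeq (GRCm38.p6), as windows from 250 bases before to 50 bases after a transcription start; 39 of the 48 genes had at least 1 window. They are shown because E2F factors bind near the starts of many replication genes; genes with large and with moderate zone differences are given. The E2F letters searched, on both strands, were TTTGGCGC, TTTGCCGC, TTTCGCGC and TTTCCCGC. They occurred in the windows of 15 of 39 genes (38.5%) and in 15 of 48 windows (31.2%), against 744 of all 32851 windows (2.26%). The median GC content of these windows was 61.3%, against 52.7% over all windows. In the following windows, printed 5′ to 3′ on the gene's strand, capitals mark every E2F match on either strand, and overlapping matches run together.
Mcm5 (chr8:75109259-75109558, plus strand): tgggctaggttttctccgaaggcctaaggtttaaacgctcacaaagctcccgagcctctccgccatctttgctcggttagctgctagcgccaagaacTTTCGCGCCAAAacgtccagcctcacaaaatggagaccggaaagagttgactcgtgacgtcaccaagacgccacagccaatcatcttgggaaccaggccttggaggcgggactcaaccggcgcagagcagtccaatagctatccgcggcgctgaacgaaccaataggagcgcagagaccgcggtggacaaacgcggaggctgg
Mcm6 (chr1:128359656-128359955, minus strand): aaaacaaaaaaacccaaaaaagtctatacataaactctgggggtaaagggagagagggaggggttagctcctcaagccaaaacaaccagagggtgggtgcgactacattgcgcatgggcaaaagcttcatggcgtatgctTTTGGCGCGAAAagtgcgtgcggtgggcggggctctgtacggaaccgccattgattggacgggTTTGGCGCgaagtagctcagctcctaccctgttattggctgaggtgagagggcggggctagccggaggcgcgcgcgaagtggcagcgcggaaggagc
Pola1 (chrX:93632106-93632405, minus strand): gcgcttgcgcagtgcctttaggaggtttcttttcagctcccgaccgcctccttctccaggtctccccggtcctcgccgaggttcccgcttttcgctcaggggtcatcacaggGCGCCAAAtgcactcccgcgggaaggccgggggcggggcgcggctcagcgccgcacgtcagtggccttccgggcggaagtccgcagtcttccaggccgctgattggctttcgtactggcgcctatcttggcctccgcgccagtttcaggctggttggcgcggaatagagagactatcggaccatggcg
Cdc7 (chr5:106964072-106964371, plus strand): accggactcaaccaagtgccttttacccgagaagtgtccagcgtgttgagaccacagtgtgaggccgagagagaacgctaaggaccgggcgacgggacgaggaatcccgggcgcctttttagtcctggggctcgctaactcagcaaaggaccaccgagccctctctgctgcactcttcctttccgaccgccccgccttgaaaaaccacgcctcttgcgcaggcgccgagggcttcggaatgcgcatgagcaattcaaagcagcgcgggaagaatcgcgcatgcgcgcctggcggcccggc
Mcm5 and Mcm6 encode subunits of the replicative helicase, and their windows held 2 and 3 matches. Pola1, the catalytic subunit of polymerase alpha, held 1, on the opposite strand. This window of Cdc7 held none.

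The 15 genes with an E2F match were Orc1, Orc3, Cdc6, Cdt1, Mcm3, Mcm5, Mcm6, Mcm7, Gins3, Pola1, Pold1, Pold3, Pole2, Rfc3 and Lig1. Their median log2 fold change was 1.09 (range 0.04 to 2.92), with 1 called higher and 10 not overlapping with the articular zone higher. Of all genes tested, 1.14% were called higher and 21.1% did not overlap in that direction. The 24 genes whose windows lacked the letters had a median of 0.83 (range -0.84 to 8.31), with 3 called higher and 11 not overlapping in the same direction. The 9 genes with no window were Gmnn, Mcm4, Gins1, Gins2, Gins4, Prim2, Pole, Rfc2 and Exo1. A match is a description of the letters, and no comparison between these sets was tested. The CCAAT box occurred in 52.1% of the 48 windows, against 37.4% of all windows, and the letters TTTGAA or TTCGAA in 20.8% against 19.2%.

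**Figure D2:**
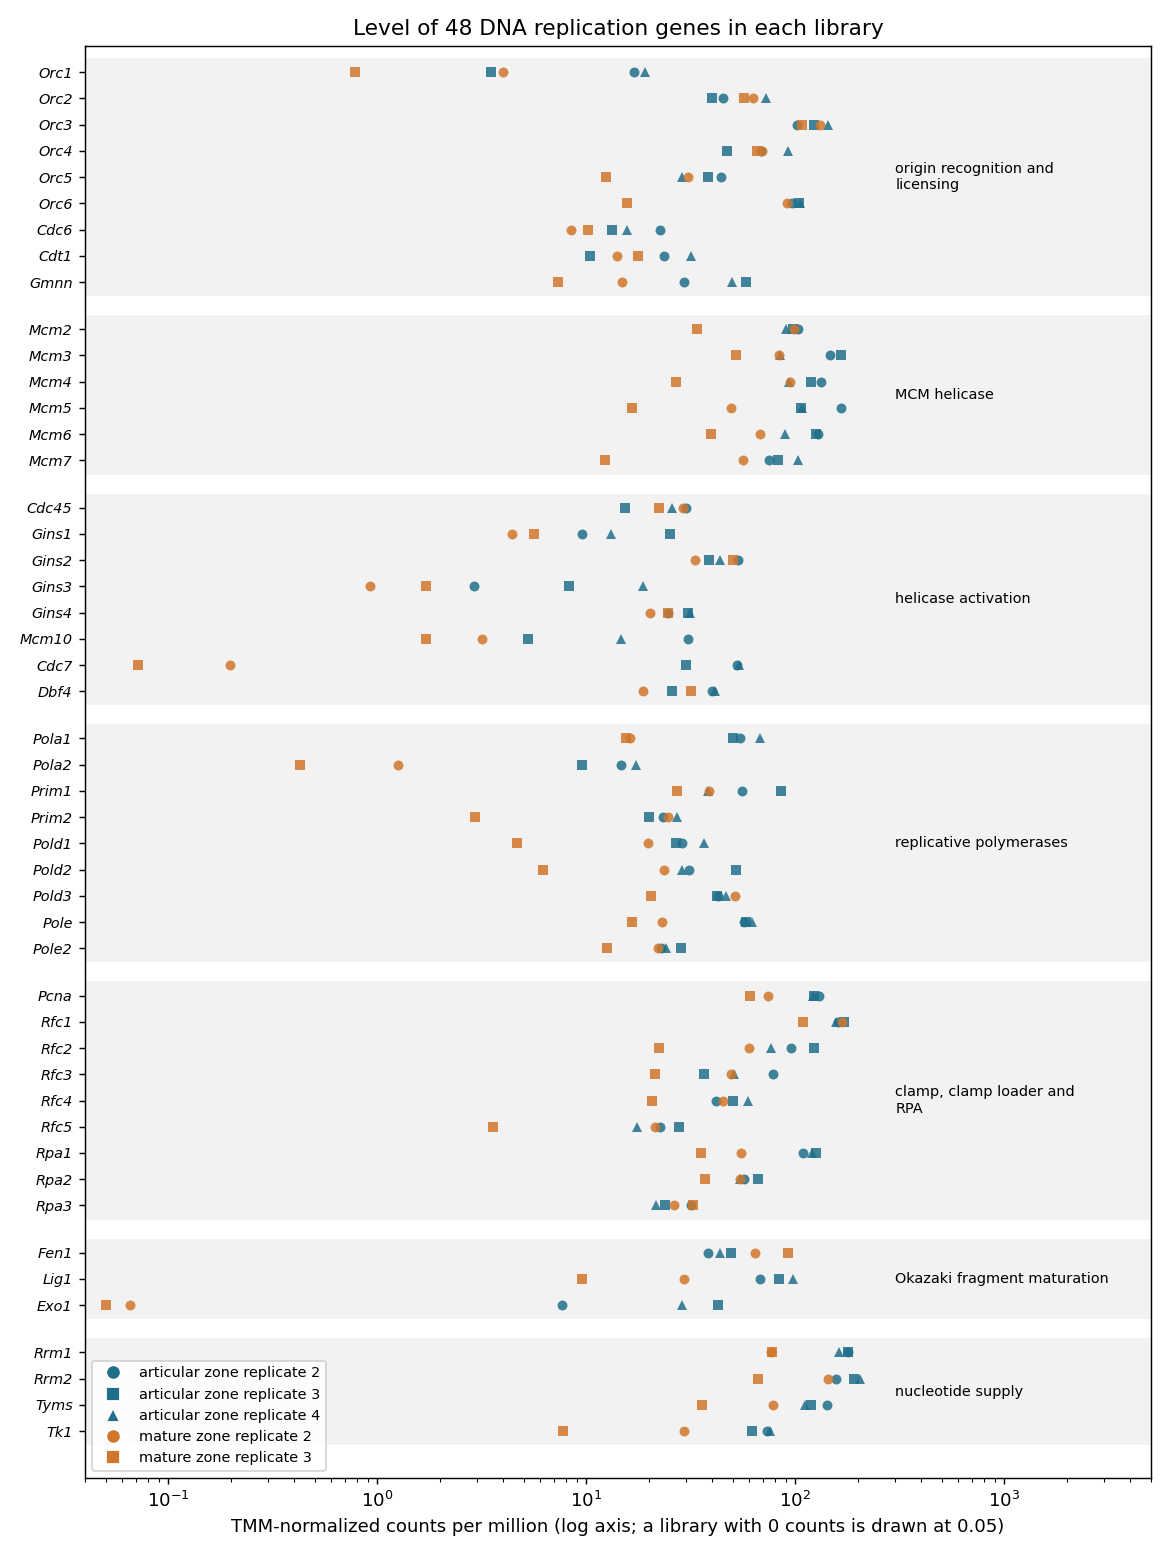
Level of each of the 48 genes in each of the 5 libraries, on a log axis of TMM-normalized CPM, grouped by role; marker shape gives the replicate and colour the zone, and a library with 0 counts is drawn at 0.05. Cdc7 and Exo1 stand at 7.67 CPM or more in every articular library, against at most 0.20 CPM in the mature libraries, and Fen1 is higher in both mature libraries.

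In helicase activation, log2 fold changes ran over -0.12 to 8.31. Cdc7 (chr5:106964322-106984432 in GRCm38, plus strand), the catalytic kinase that fires licensed origins, had 912, 473 and 1072 counts in the articular zone, against 3 and 1 counts in the mature zone. All 3 articular libraries were thus far above both mature libraries. The summed normalized counts differed 339-fold (95% counting interval 132 to 1244, which leaves out the spread between libraries). The fitted log2 fold change was 8.31 (SE 0.74, adjusted p = 0.0052 by edgeR's quasi-likelihood test). Cdc7 stayed past the threshold in 14 of 16 alternatives. It missed it in limma-voom (adjusted p = 0.094) and without articular replicate 4 (adjusted p = 0.053).

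Dbf4, the regulatory subunit without which CDC7 is inactive, did not pass the test. It had 39.9, 25.7 and 41.3 CPM in the articular zone, against 18.6 and 31.6 CPM in the mature zone, so the zones overlapped (log2 fold change 0.51, SE 0.43, edgeR adjusted p = 0.58). The ratio of Cdc7 to Dbf4 counts was 1.32, 1.17 and 1.31 in the articular libraries, against 0.011 and 0.0023 in the mature libraries. Exon bases of Cdc7 and Dbf4 overlapped no other annotated gene.

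The helicase itself becomes active with CDC45 and the 4 GINS subunits. Gins2, the highest of this role by FPKM (a level per gene length and library size), had 53.1, 38.5 and 43.6 CPM in the articular zone, against 33.3 and 50.4 CPM in the mature zone (log2 fold change 0.11, SE 0.34, edgeR adjusted p = 0.91). Its zones overlapped, and 70.7% of its exon bases lie opposite exons of Gse1 on the other strand, so its reads may be shared with that gene. Gins1, Gins3 and Mcm10, which helps open the helicase, had higher values in every articular library than in either mature one, with log2 fold changes of 1.66, 2.92 and 2.79. Their SEs were 0.74 to 1.19 and none passed the test. Gins4 (0.36) and Cdc45 (-0.12) had overlapping zones.

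The MCM genes encode the 6 subunits of the ring that unwinds the double helix. None was called by edgeR, but 4 were higher at an unadjusted p under 0.05 (66.7%, against 10.8% of all genes). Calls numbered 1 by limma-voom and 2 by DESeq2, which called more of all genes than edgeR did. Their summed level was 750, 695 and 567 CPM in the articular zone, against 449 and 181 CPM in the mature zone, with no overlap. Mcm5 had 165.9, 106.4 and 107.2 CPM in the articular zone, against 49.0 and 16.6 CPM in the mature zone (log2 fold change 1.95, SE 0.48, edgeR adjusted p = 0.079). Mcm6 had 127.9, 125.0 and 88.8 CPM in the articular zone, against 67.5 and 39.6 CPM in the mature zone (1.09, SE 0.32, adjusted p = 0.12). Both genes were higher in every articular library than in either mature one. Mcm7, the highest of the ring by FPKM, had 75.2, 82.1 and 103.3 CPM in the articular zone, against 56.0 and 12.3 CPM in the mature zone (1.35, SE 0.58, edgeR adjusted p = 0.24). Its mature libraries differed more from each other than the articular ones did. Mcm3 likewise did not overlap (0.96), while Mcm2 (0.54) and Mcm4 (0.93) in mature replicate 2 fell within the articular range. All 6 were lowest in mature replicate 3, whose level relative to mature replicate 2 had a median log2 difference of -1.55 over the ring, against -0.02 over all genes.

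Origin recognition and licensing had the smallest ratio of summed levels of the 7 roles, 1.34, with 448, 437 and 557 CPM in the articular zone against 426 and 294 CPM in the mature zone. None of its 9 genes was called by edgeR or limma-voom, and 1 was by DESeq2, which called more of all genes than edgeR did. At an unadjusted p under 0.05 by edgeR, 1, Gmnn, was higher (11.1%, near the 10.8% of all genes). Gmnn encodes geminin, which binds CDT1 and prevents a second licensing in the same cycle. It had 29.4, 57.9 and 49.6 CPM in the articular zone, against 14.9 and 7.27 CPM in the mature zone (log2 fold change 2.04, SE 0.51, edgeR adjusted p = 0.079), without overlap. Its target Cdt1, the licensing factor, had 409, 164 and 630 counts in the articular zone, against 213 and 248 counts in the mature zone, and overlapped (0.47, SE 0.59).

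Among the origin recognition subunits, log2 fold changes ran over -0.19 to 2.45. Orc6, the highest by FPKM, had 96.2, 104.0 and 105.0 CPM in the articular zone, against 91.3 and 15.7 CPM in the mature zone (log2 fold change 0.93, SE 0.61, edgeR adjusted p = 0.46). Here mature replicate 2 lay just below the articular range and mature replicate 3 far below it. Orc1, the subunit best known to vary through the cell cycle, had 292, 55 and 381 counts in the articular zone, against 61 and 11 counts in the mature zone, and overlapped (2.45, SE 1.14). Orc5 had 0.78 (SE 0.48) and overlapped, the loader Cdc6 had 0.88 (SE 0.59) and did not, and Orc2, Orc3 and Orc4 had -0.19, 0.04 and 0.04.

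Among the replicative polymerases, 2 genes were called higher in the articular zone (22.2%, against 1.14% of all genes). All 9 had a log2 fold change above 0 (against 53.5% of all genes). Pola1 (chrX:93304767-93632155, minus strand), whose product extends the RNA primer with DNA, had 54.3, 50.2 and 67.6 CPM in the articular zone, against 16.2 and 15.5 CPM in the mature zone. The mature libraries agreed closely and lay below the whole articular range (log2 fold change 1.85, SE 0.34, edgeR adjusted p = 0.032). Pole (chr5:110286306-110337474, plus strand), the catalytic subunit of polymerase epsilon on the leading strand, had 56.9, 57.8 and 62.2 CPM in the articular zone, against 23.1 and 16.5 CPM in the mature zone, also with no overlap (1.58, SE 0.33, edgeR adjusted p = 0.049). Neither passed in limma-voom (adjusted p = 0.061 and 0.073) or in the 3 fits on FPKM.

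Pola2, the accessory subunit of polymerase alpha, had 254, 151 and 344 counts in the articular zone, against 19 and 6 counts in the mature zone. Its zones lay wide apart with a large error (log2 fold change 4.03, SE 0.98, edgeR adjusted p = 0.075). The ratio of Pola2 to Pola1 counts was 0.27, 0.19 and 0.26 in the articular libraries, against 0.077 and 0.028 in the mature libraries. The ratio restates the larger fold change of Pola2 and is not separate support. Prim1, the primase that makes the primer and the highest of this role by FPKM, had 55.5, 85.7 and 38.3 CPM in the articular zone, against 38.8 and 27.0 CPM in the mature zone, and overlapped (0.86, SE 0.41, edgeR adjusted p = 0.30). Pold1 and Pold2, of the lagging-strand polymerase delta, and Pole2 did not overlap (1.32, 1.32 and 0.54). Prim2 (0.77) and Pold3 (0.29) did, and all 9 genes were lowest in mature replicate 3.

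The sliding clamp, its loader and the single-strand binding protein RPA gave 1 called gene of 9 (11.1%, against 1.14% of all genes called higher). Rpa1 (chr11:75298166-75348324, minus strand), the main DNA-binding subunit of RPA, had 109.1, 125.2 and 119.7 CPM in the articular zone, against 55.2 and 35.2 CPM in the mature zone, with no overlap (log2 fold change 1.39, SE 0.29, edgeR adjusted p = 0.046). The other RPA subunits, Rpa2 (0.37) and Rpa3 (-0.19), overlapped, and the ratio of Rpa1 to Rpa3 counts was 3.45, 5.28 and 5.53 in the articular libraries, against 2.10 and 1.08 in the mature libraries. Pcna, the clamp that tethers polymerases, had 129.2, 123.3 and 121.1 CPM in the articular zone, against 74.0 and 60.6 CPM in the mature zone (0.89, SE 0.23, edgeR adjusted p = 0.090). Its zones were separate at less than a 2-fold difference, and pseudogenes of Pcna in the annotation may share its reads. Rfc2, of the clamp loader and the highest of the 48 by FPKM, had 95.6, 122.4 and 76.7 CPM in the articular zone, against 59.9 and 22.3 CPM in the mature zone (1.26, SE 0.45, edgeR adjusted p = 0.17), without overlap. The other loader subunits, Rfc1, Rfc3, Rfc4 and Rfc5, overlapped, with log2 fold changes of 0.23, 0.65, 0.62 and 0.85.

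The genes that process Okazaki fragments, the short pieces of the lagging strand, had fold changes of both signs. Exo1 (chr1:175880581-175913489, plus strand), an exonuclease that also acts in mismatch repair, had 133, 676 and 572 counts in the articular zone, against 1 and 0 counts in the mature zone. The articular libraries differed 5.57-fold among themselves and all lay far above the mature ones. The ratio of summed normalized counts was 762 with a 95% counting interval of 137 to 30100, which covers counting error only, and the test gave an edgeR adjusted p of 0.016. Exo1 did not pass in limma-voom (adjusted p = 0.19), in the fits on FPKM, or without articular replicate 3, articular replicate 4 or mature replicate 3. Lig1, the ligase that seals the fragments, had 67.5, 83.0 and 97.7 CPM in the articular zone, against 29.2 and 9.48 CPM in the mature zone, with no overlap (log2 fold change 2.10, SE 0.50, edgeR adjusted p = 0.072).

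Fen1 (chr19:10199132-10204169, minus strand), the nuclease that trims the flaps before ligation, was the only one of the 48 with separate zones in the other direction. It had 38.4, 49.1 and 43.6 CPM in the articular zone, against 64.1 and 91.9 CPM in the mature zone, so both mature libraries were above all articular ones (log2 fold change -0.84, SE 0.30, edgeR adjusted p = 0.17). Of its exon bases, 84.2% lie opposite exons of Tmem258 and Gm10143 on the other strand. The row of Tmem258 (listed as 1810006K21Rik) had 2172, 2417 and 2561 counts in the articular zone, against 2606 and 3539 counts in the mature zone (-0.64, SE 0.23, edgeR adjusted p = 0.18). The sources used here do not say whether counting used strand, so reads of Fen1 and its opposite neighbours cannot be told apart. The ratio of Lig1 to Fen1 counts was 1.76, 1.69 and 2.24 in the articular libraries, against 0.46 and 0.10 in the mature libraries. Its lower term carries the same uncertainty about the Fen1 reads.

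All 4 genes of deoxynucleotide supply were higher in the articular zone with separate zones (against 21.1% of all genes). All 4 had an unadjusted p under 0.05 (against 10.8% of all genes higher). Together they reached 549, 550 and 551 CPM in the articular zone, against 327 and 187 CPM in the mature zone. Rrm1 (chr7:102441695-102469771, plus strand), the large subunit of ribonucleotide reductase, had 178.5, 178.3 and 161.0 CPM in the articular zone, against 76.5 and 76.9 CPM in the mature zone (log2 fold change 1.17, SE 0.21, edgeR adjusted p = 0.029). Replicates of each zone were close together, and the gap between zones was several times their spread. Tyms, thymidylate synthase, had 141.1, 118.1 and 111.6 CPM in the articular zone, against 78.0 and 35.6 CPM in the mature zone (1.12, SE 0.36, edgeR adjusted p = 0.14). Tk1, the salvage enzyme thymidine kinase and the highest of this role by FPKM, had 73.2, 62.2 and 75.4 CPM in the articular zone, against 29.4 and 7.70 CPM in the mature zone (1.92, SE 0.55, edgeR adjusted p = 0.11). Rrm2, the small reductase subunit that is limiting in S phase, had a log2 fold change of 0.81 (SE 0.33). The ratio of Rrm1 to Rrm2 counts overlapped between zones, at 1.15, 0.93 and 0.79 in the articular libraries, against 0.53 and 1.16 in the mature libraries. Ratios of Gmnn to Cdt1, Mcm5 to Mcm3 and Tk1 to Tyms were also computed and were higher in every articular library. A pseudogene of Tyms in the annotation may share its reads.

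**Figure D3:**
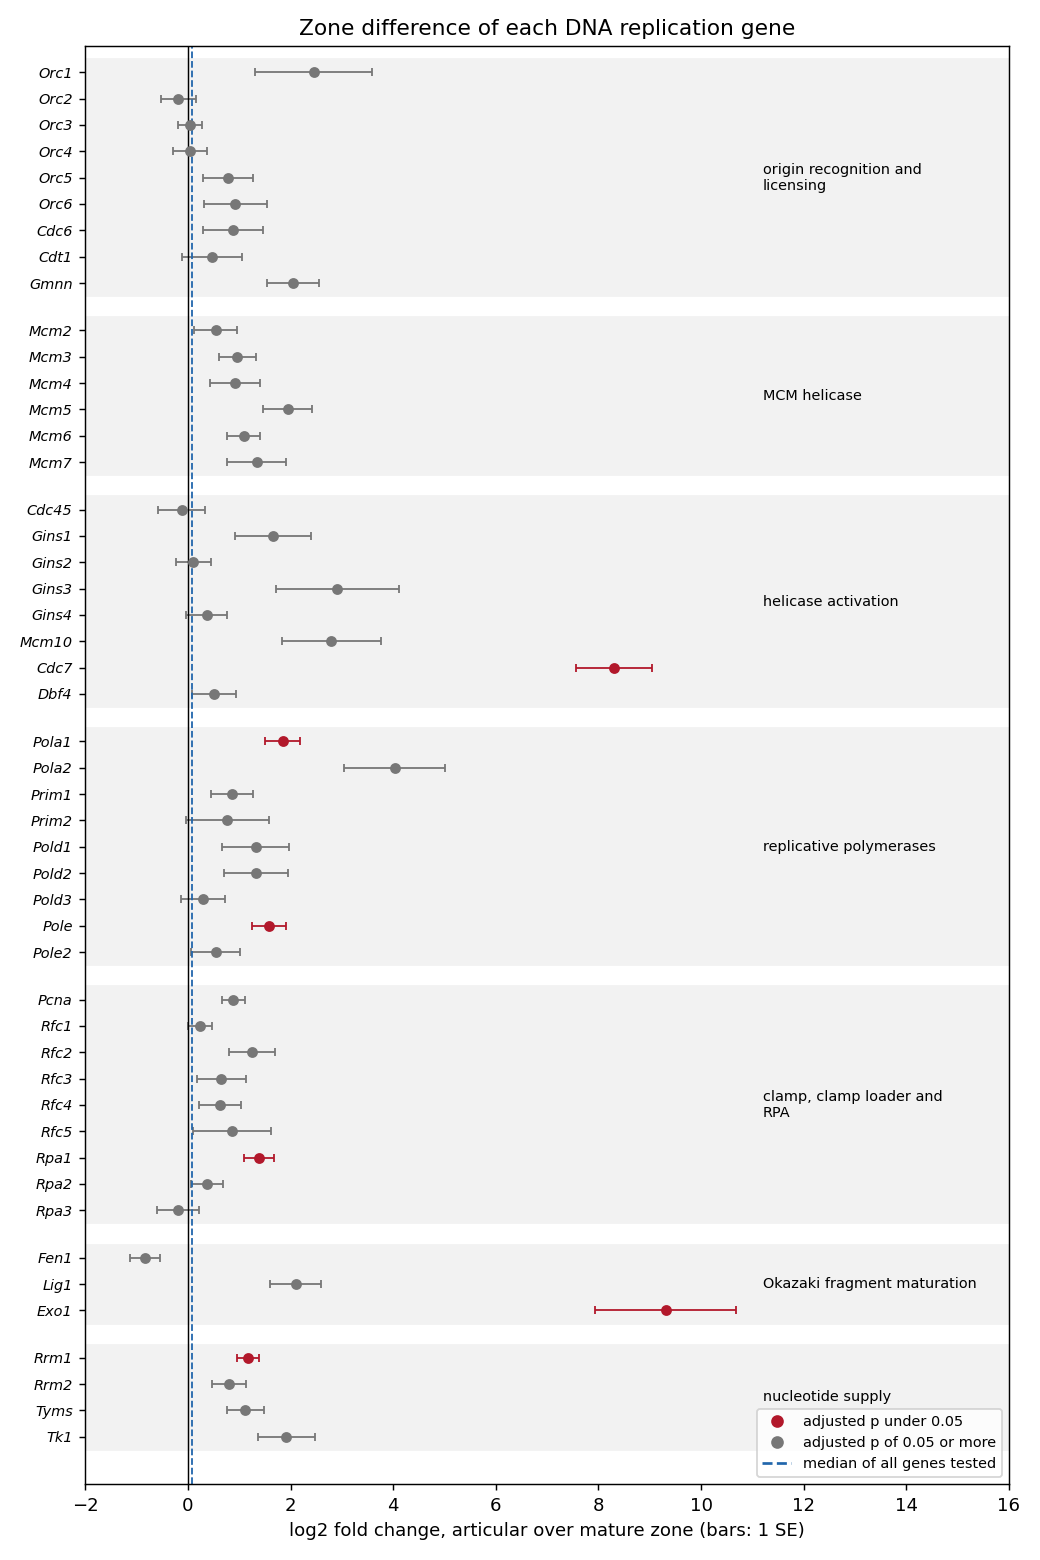
Fitted log2 fold change, articular over mature zone, of the 48 genes by role, with bars of 1 SE; red marks an adjusted p under 0.05 and the dashed line the median of all genes tested, 0.07. Cdc7 (8.31) and Exo1 (9.31, a value that depends on the prior count) lie apart from the rest, and Orc2, Cdc45, Rpa3 and Fen1 are the 4 genes below 0.

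Of the fits that left out 1 library, Pola1, Pole, Rpa1 and Rrm1 each passed only in that without mature replicate 2, where the remaining mature library is assumed to vary like the articular ones. Leaving out articular replicate 4 left none of the 48 genes past the edgeR threshold, with 18 higher and 0 lower at an unadjusted p under 0.05. The 48 genes all passed the count minimum of 10 in 2 libraries. Cdc7, Exo1 and Pola2 had under 10 counts in a mature library, so these 3 could enter the test only through the articular zone and are no support for the direction of the list. Among the 45 genes with 10 or more counts in both mature libraries, 4 were called higher (8.89%, against 1.02% of the 10399 such genes), 41 were above 0 (91.1% against 46.5%) and 23 did not overlap with the articular zone higher (51.1% against 17.1%). Compared by level per length, Rfc2 (mean 36.9 FPKM), Gins2 (34.2) and Pcna (27.5) were the highest of the 48 and Orc1 (0.84) the lowest. Normalized counts divided by annotated exon length ordered the genes differently, with Rrm2, Pcna and Orc3 highest and Rfc2 at rank 27, so levels between these genes are uncertain.

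Other lists of cell cycle genes were set beside the replication genes, each from the same fit. The mitosis genes, which build the spindle and divide the cell, had 8 of 44 called higher (18.2%, against 1.14% of all genes). All 44 were above 0 (against 53.5% of all genes), with a median log2 fold change of 1.33, against 0.91 for the replication genes. Mki67, the proliferation marker, had 6809, 8116 and 11912 counts in the articular zone, against 2246 and 1146 counts in the mature zone (log2 fold change 2.13, SE 0.31, edgeR adjusted p = 0.016). Top2a, the topoisomerase that untangles sister chromatids, had 5077, 5492 and 5930 counts in the articular zone, against 1663 and 512 counts in the mature zone (2.10, SE 0.43, edgeR adjusted p = 0.045). Incenp (2.63), Anln (1.71) and Smc2 (1.97), for chromosome passenger, cleavage furrow and condensin functions, were also called. No test compared the lists with each other.

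Fork and S phase checkpoint factors had 1 of 32 called (3.12%, near the 3.00% of all genes). DESeq2, which called more of all genes than edgeR did, called 5, all higher, and limma-voom called none. At an unadjusted p under 0.05 by edgeR, 7 were higher (21.9%, against 10.8% of all genes) and 0 lower. The called gene, Chtf18, a subunit of an alternative clamp loader, had 335, 420 and 320 counts in the articular zone, against 34 and 18 counts in the mature zone (log2 fold change 3.55, SE 0.72, edgeR adjusted p = 0.045). The median of that list was 0.69, with 24 genes above 0. Chromatin assembly and DNA methylation at forks had no call by edgeR among 14 genes, 1 by limma-voom and 4 by DESeq2. At an unadjusted p under 0.05 by edgeR, 5 were higher (35.7%, against 10.8% of all genes). All 14 were above 0 with a median of 0.73. The smallest p-values were those of Hat1 (log2 fold change 1.59, SE 0.37), a histone acetyltransferase, and Asf1a (3.06, SE 0.84), a histone chaperone.

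Of 27 other nucleotide synthesis genes, 12 were above 0, with a median of -0.04. None was called by edgeR, while limma-voom called 1 lower. DESeq2, which called more of all genes than edgeR did, called 3 lower. At an unadjusted p under 0.05 by edgeR, 1 was higher (3.7%, against 10.8% of all genes) and 4 lower (14.8%, against 9.27%). Samhd1, which degrades deoxynucleotides, had a log2 fold change of -1.23 (SE 0.29, edgeR adjusted p = 0.065), and Nme1, a nucleoside diphosphate kinase, of -0.85 (SE 0.21, edgeR adjusted p = 0.079). Of 31 regulators of entry into S phase, 1 was called (3.23%, near the 3.00% of all genes). At an unadjusted p under 0.05 by edgeR, 6 were higher (19.4%, against 10.8% of all genes) and 1 lower (3.23%, against 9.27%). DESeq2 also called 6 higher and 1 lower, and limma-voom 1 lower. The called gene, Cdkn1a, the cyclin-dependent kinase inhibitor p21, had 719, 1094 and 1161 counts in the articular zone, against 2310 and 3050 counts in the mature zone, and was lower in the articular zone without overlap (-1.71, SE 0.29, edgeR adjusted p = 0.025). The median of the regulators was 0.44.

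**Figure D4:**
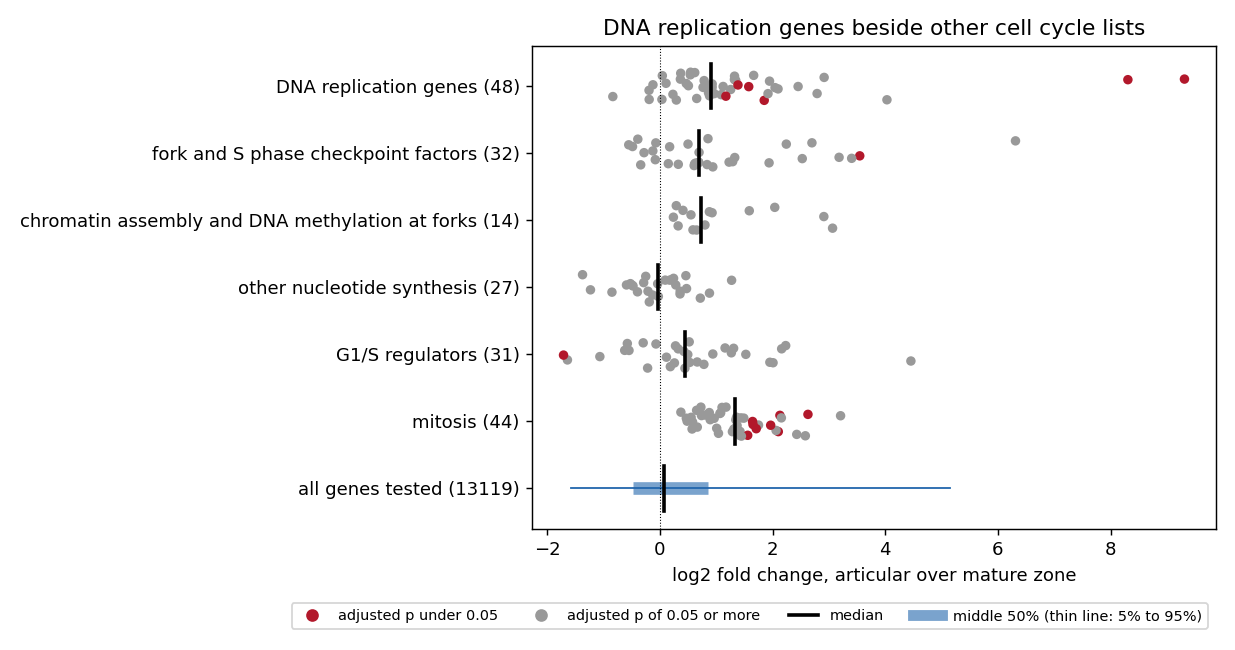
Fitted log2 fold change, articular over mature zone, of each gene in the replication list and 5 other lists (1 point a gene, vertical spread only for visibility), with the median as a black line; the bottom row gives the middle 50% of all 13119 genes. Mitosis genes (median 1.33) and replication genes (0.91) lie to the right of the median of all genes (0.07), and other nucleotide synthesis genes (-0.04) do not.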

How the data were processed

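RNA of laser-captured condyle cells was made into poly(A), single-end libraries. Reads were trimmed with Trimmomatic 0.32 and mapped to mm10 with SHRiMP, and the sources used here name no counting tool or strand setting. The authors deposited raw read counts per gene and FPKM values with a floor of 0.1. Their table of DESeq fold changes and p-values was not used. Counts were tested with edgeR 4.0.16 in R 4.3.3 (TMM, robust quasi-likelihood fit, a minimum of 10 counts in 2 or more libraries, 3 residual degrees of freedom), calling an adjusted p under 0.05. CPM are TMM-normalized. Counting intervals (95%) and depth cover counting error only, since no molecular identifiers are named for these reads. Depth was 15449883 to 18884685 counts a library.

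Members, gene lists and alternatives were chosen with earlier results of these data known. Values per library are given for genes past the threshold, for the 14 members with the smallest p and for the highest FPKM of each role. Other members given per library (Dbf4, Cdt1, Orc1) were chosen after their values were seen. From each other list, up to 4 called genes with the smallest p, or else the 2 with the smallest p, are named, with Mki67, Top2a and Prg4 for context.

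Alternatives were other normalizations and filters, a replicate block, limma-voom (limma 3.58.1), DESeq2 1.42.0, limma on log2(FPKM + 1) or log2(FPKM + 0.1), a threshold of 0.01 and leaving out libraries. The fit without both replicate 2 libraries was chosen after seeing the data. A check on simulated counts set a condition only on the size of fitted fold changes and none on false calls. Coordinates of exons come from GENCODE M21 (GRCm38).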

Additional observations from a re-analysis of the deposited data

How the results depend on the processing

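The count of 6 replication genes called (none lower under any alternative) kept within 1.5 times under 7 of 11 alternatives that kept all libraries. It was 3 with a replicate block, 16 with DESeq2, 15 with limma on log2(FPKM + 1) without a filter and 1 at a threshold of 0.01, and leaving out 1 library gave 0 (without articular replicate 4) to 23 (without mature replicate 2). It was 22 without both replicate 2 libraries. The median log2 fold change of 0.91 was 1.26 with the block, 1.31 on log2(FPKM + 0.1), 1.53 without both replicate 2 libraries and 0.64 to 1.52 with 1 library left out. The labels do not say whether the numbers pair the libraries. Deviations from zone means correlated across genes at r = 0.13 for both same-numbered pairs and at -0.13 for the crossed pairs. The 2 mature libraries deviate by equal and opposite amounts, so these values depend on each other and cannot decide pairing. Both replicate 2 libraries carried most of the skeletal muscle marker RNA. With the block Cdc7, Exo1 and Mcm5 passed.

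Over all genes, 393 were called (150 higher, 243 lower). The count was 593 without a filter, 226 with the replicate block, 32 at a threshold of 0.01 and 13 to 1289 with 1 library left out. The balance turned to more higher than lower with DESeq2 (1802 called, 1036 higher), on log2(FPKM + 1) (480, or 766 without a filter), on log2(FPKM + 0.1) (349), without mature replicate 2 (1289) and without both replicate 2 libraries (1591). For the 5 other lists, 10 of 148 genes were called. The count was 19 without a filter, 21 with at least 10 counts in every library, 3 with the block, 44 with DESeq2, 23 on log2(FPKM + 1), 33 on the same scale without a filter, 0 at a threshold of 0.01, 56 without both replicate 2 libraries and 0 to 51 with 1 library left out (0 without articular replicate 3 or 4, with 46 and 45 at an unadjusted p under 0.05 by edgeR).

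The fitted log2 fold changes of 9 genes changed sign; none of the 9 was called by edgeR with all libraries. Under the block, Cdt1 was at -0.006, Orc3 at -0.084 and Orc4 at -0.251. With 1 library left out, values ranged over -0.325 to 0.124 for Cdc45, -0.162 to 0.439 for Gins2, -0.032 to 1.52 for Mcm2, -0.088 to 0.185 for Orc3, -0.222 to 0.263 for Orc4, -0.229 to 1.11 for Pold3, -0.072 to 3.00 for Prim2 and -0.045 to 0.572 for Rfc1. Gins2 was at -0.291 without both replicate 2 libraries. The cause was not tested. The median of all genes shifted by over 0.1 only without a filter (0.14) and on log2(FPKM + 0.1) (0.13). With 2 mature libraries, a gene that was not called is not shown to be equal between zones, and a mature library at 0 to 3 counts allows no precise fold.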
